A study of Saccharomyces cerevisiae with 22 samples.

Results

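The response to dithiothreitol (DTT) of budding yeast carrying snf2W935R was compared with that of wild-type cells, one transcription start cluster at a time. Capped 5′ ends of polyadenylated RNA were sequenced from Saccharomyces cerevisiae W303, and nearby start positions were merged into consensus clusters. The 8 libraries used are SNF2 (snf2Δ with SNF2::LEU2 integrated) and snf2W935R (snf2Δ with snf2-W935R::LEU2), each grown in YPD, without treatment or with 5 mM DTT for 1 h, in 2 replicates made on different days. All 4 groups therefore lack SNF2 at its own locus and carry one integrated copy with LEU2. One culture was divided between the untreated and the DTT flask, so both arms of a replicate share their starting cells. The SWI3 strain (swi3Δ with SWI3::LEU2), a second wild type with 2 libraries per arm, is given where it shows how far wild-type levels vary. For each cluster the effect of snf2W935R without DTT was subtracted from its effect with DTT, and the result is the change of the DTT response. Such a difference existed for 5181 of the 5195 clusters. At the other 14 clusters a fold change was missing from one of the tables, and they include an upstream start of KAR2 described below.

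Swi/Snf is a remodeller that uses ATP to slide and evict nucleosomes, and Snf2 is its ATPase subunit. DTT reduces disulphide bonds, unfolds proteins in the endoplasmic reticulum (ER) and sets off the unfolded protein response, in which the kinase and nuclease Ire1 splices HAC1 mRNA and the factor Hac1 binds the promoters of genes such as KAR2, the ER Hsp70 chaperone. At some genes stress switches on a start far upstream, and transcription from it silences the start near the coding region. HNT1, which encodes a nucleotide hydrolase of the HINT family, is such a gene, and the series asks how Swi/Snf takes part in this interference.

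The sequences below are shown because HNT1 and KAR2 carry the core of the Hac1 site, CAGCGTG, upstream of the starts that DTT induces, and because SPL2 carries CACGTG, the site of the phosphate regulator Pho4, more than once. They were read from the R64 genome, 5′ to 3′ on the strand of the cluster, with the motif in capitals.
HNT1 upstream start, chrIV:239946-239975, minus strand, 141 bp from the cluster: cttctacaaaaCAGCGTGccgttttgatgg
KAR2 main start, chrX:381156-381185, plus strand, 117 bp from the cluster: gaggaactggaCAGCGTGtcgaaaaagttg
SPL2, chrVIII:375114-375143, minus strand, 64 bp from the cluster: agtcactgcagcCACGTGcctagatctatt
SPL2, chrVIII:375173-375202, minus strand, 123 bp from the cluster: tctctcttttccCACGTGctccgctctctt
SPL2, chrVIII:375230-375259, minus strand, 180 bp from the cluster: aaatgatgtacgCACGTGggcgaaagttca
In the 300 bases upstream of a cluster, searched on both strands, CAGCGTG was present at 1.89% of all tested clusters and CACGTG at 5.08%.

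The DTT response differed between snf2W935R and wild type at 45 of 5181 clusters, which is 0.869% (two-sided Wald test on the difference of the effects, Benjamini-Hochberg adjusted p under 0.05). At 30 clusters (0.579%) the difference was above 0, so that levels with DTT relative to untreated were higher in snf2W935R, and at 15 (0.29%) it was below 0. The count depends on the normal reference of the Wald test and on the SE. With a t distribution of 4 degrees of freedom 0 clusters were called and 148 had an unadjusted p under 0.05, and 12 were called with the larger of the 2 SEs used for both effects. Each was then read beside the wild-type response, which the authors' deposited table, made from SNF2 and SWI3 libraries, calls at 33.8% of clusters, with 16.5% higher and 17.3% lower after DTT. The largest class holds 16 clusters that wild type lowered with DTT and snf2W935R lowered less or not at all. The opposite, a wild-type rise that was smaller in the mutant, was called at 2 clusters. A wild-type response was larger in the mutant at 7 clusters, 3 rises and 4 falls. The remaining 20 clusters, termed gained, are those where the wild-type table calls no response, 11 with a difference above 0 and 9 below. At 2 of these 9, SET1 and cluster 5511, the mutant response itself was under 2-fold. Read against a 2-fold response of the SNF2 libraries alone, 29 responses were smaller, 4 larger and 12 gained. The SNF2 libraries also enter the difference, with the opposite sign, which favours the smaller class in this reading. They are part of the wild-type table too, so the main classes share this limit. Against a 2-fold response of the SWI3 libraries alone, 16 were smaller, 10 larger and 19 gained.

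Of the 18 smaller responses, 10 were lost, meaning that the mutant response was under 2-fold, 1 was reduced but still 2-fold or more, and 7 were reversed, at 2-fold or more the other way. This split takes the mutant response as the wild-type response of both strains plus the difference. From the arm means of the snf2W935R libraries themselves, 13 were lost, 1 was reduced and 4 were reversed. These 4 include SPL2, whose mutant arms had 3.14 and 7.41 counts, and MEP3, whose untreated SNF2 arm had 0. At 22 of the 45 clusters the authors' deposited tables call an effect of snf2W935R only with DTT, at 14 only without DTT, at 2 in both and at 7 in neither. Over all clusters, those tables call an effect with DTT at 5.37% and without DTT at 2.74%. The effects with and without DTT had opposite signs at 36 of the 45. The 45 were chosen on the difference of these effects, which favours called effects and opposite signs. These counts are therefore a description and no further result.

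**Figure D1:**
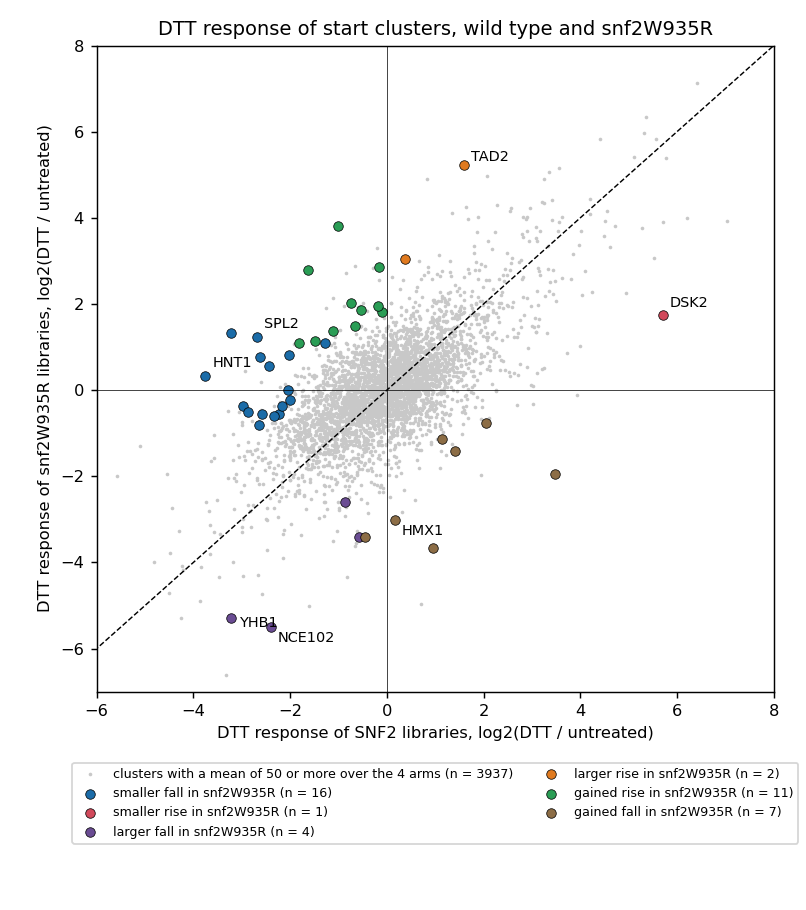
DTT response of each start cluster in SNF2 wild type (x axis) and in snf2W935R (y axis), as log2 of DTT over untreated, from means of 2 libraries per arm. Grey points are 3937 clusters with a mean of 50 or more, coloured points are the 41 changed clusters without an arm under the floor of 3 counts over its libraries, and the dashed line marks equal responses; the blue points, smaller falls, lie at -1.27 or lower on the x axis and between -0.81 and 1.32 on the y axis.

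Levels below are mean normalized counts of an arm, computed from the deposited means and fold changes and put on one scale. They have no SD, because no values per library were used here, and the error of a difference is its standard error (SE). Levels are compared within a cluster, not between genes.

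The loss of a wild-type fall with the smallest adjusted p was at HNT1. Its start-proximal cluster (chrIV:239563-239608, minus strand), which overlaps the coding start, had 1274 counts in untreated SNF2 cells and 94.5 with DTT. In snf2W935R the same cluster had 1513 counts untreated and 1905 with DTT. The SWI3 strain, at 1597 and 122, followed the SNF2 strain, so that only the mutant arm with DTT stood apart. The difference was 4.09 ± 0.50 (SE) on the log2 scale (Wald test, Benjamini-Hochberg adjusted p = 1.54e-12), and it came from the DTT arm, since the untreated effect in the authors' deposited table was 0.25 ± 0.31.

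The upstream start of HNT1 (chrIV:239755-239817), 180 bp before the coding start, had higher levels with DTT in both strains. It had 196 counts untreated and 1520 with DTT in SNF2 cells, and 52.2 and 984 in snf2W935R. The mutant mean was lower in both arms, and the log2 response was 2.96 in SNF2 cells and 4.24 in the mutant. In the authors' deposited tables the untreated effect, -1.91 ± 0.57, was called, and the effect with DTT, -0.63 ± 0.40, was not. The change of the response, 1.28 ± 0.69, was not called (Benjamini-Hochberg adjusted p = 0.534). The start-proximal fall was thus absent in libraries in which the upstream start had reached 984 counts, against 1520 in wild type. KAR2, which shares the CAGCGTG motif, had 933 and 10050 counts in SNF2 cells and 605 and 2830 in snf2W935R at its main start (chrX:381290-381316), 24 bp before the coding start. Its difference of -1.20 ± 0.54 on the log2 scale was not called (adjusted p = 0.385, Benjamini-Hochberg). In the authors' deposited tables the KAR2 effect with DTT, -1.83 ± 0.37, was called, and the untreated effect, -0.63 ± 0.39, was not. HAC1 itself had a difference of -1.02 ± 1.21 at its cluster with the highest level (adjusted p = 0.87, Benjamini-Hochberg), which is inside the coding region and does not report splicing.

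Rises that were smaller in snf2W935R concerned starts inside coding regions. DSK2 encodes a ubiquitin receptor that carries substrates to the proteasome, and its internal cluster (chrXIII:819214-819337, plus strand), 448.5 bp past the coding start, is called in wild type with DTT. It had 32.1 counts untreated and 1678 with DTT in SNF2 cells, and 40.2 and 133 in snf2W935R. Both strains began at similar levels and only the wild-type levels with DTT were high, with SWI3 cells at 45.5 and 1607. The difference was -3.97 ± 1.02 (Wald test, Benjamini-Hochberg adjusted p = 0.0225). The start of DSK2 upstream of its coding region, 31 bp away, had 748 and 753 counts in SNF2 cells and 770 and 930 in snf2W935R, with no called difference.

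MEP3, an ammonium permease, had the other smaller rise, at a cluster 967 bp inside its coding region (chrXVI:811464-811508, minus strand). SNF2 libraries had 0 counts untreated and 92.4 with DTT, while snf2W935R had 735 untreated and 28.4 with DTT. Wild type was the higher strain with DTT and the mutant the higher one without it. Against the floor of 3 counts over the libraries of an arm, SNF2 cells were at least 61.6-fold higher with DTT, and the difference was -10.64 with the SNF2 arm set at that floor. The adjusted p of 0.000183 (Wald test, Benjamini-Hochberg) belongs to the fitted difference of -25.81 ± 4.86, not to the value at the floor. The fitted size is no bound. With the larger of the 2 SEs used for both effects, the adjusted p of the same test was 0.0502. The MEP3 start 233 bp upstream had 1072 and 201 counts in SNF2 cells and 1582 and 501 in the mutant, with no called difference.

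**Figure D2:**
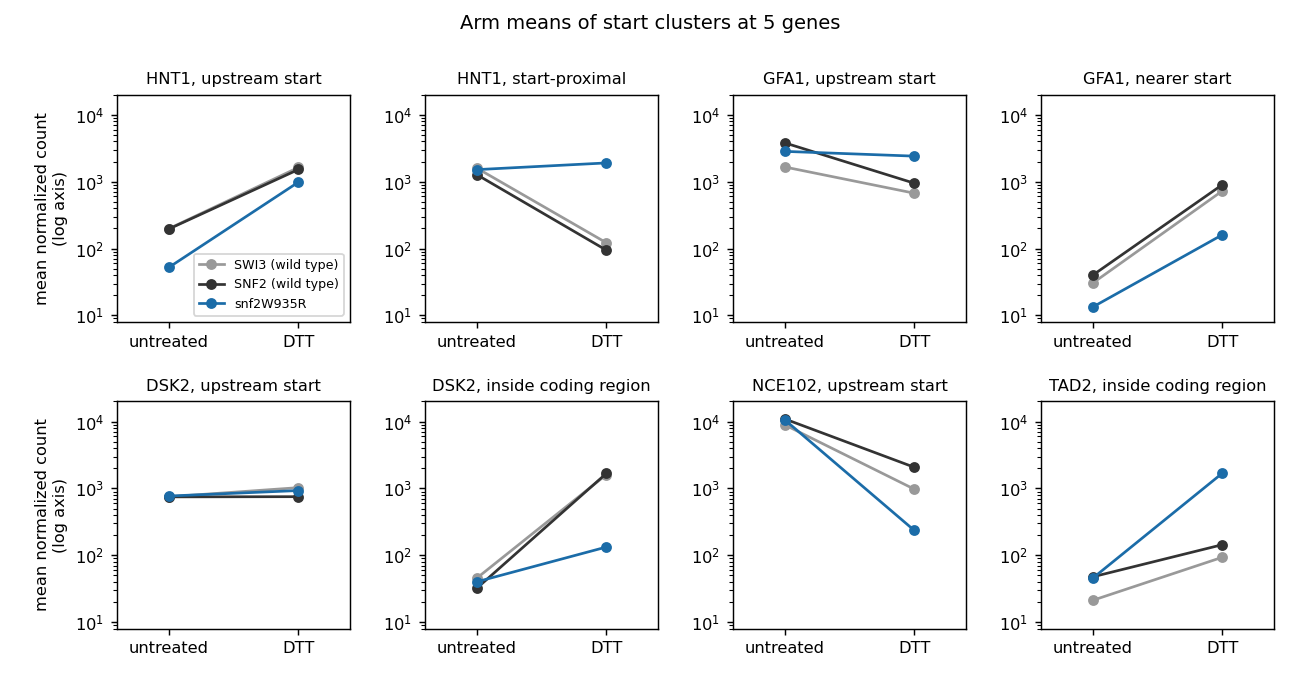
Mean normalized counts (log axis) without and with DTT at 8 start clusters of HNT1, GFA1, DSK2, NCE102 and TAD2, in SNF2 wild type (black), SWI3 wild type (grey) and snf2W935R (blue), each point a mean of 2 libraries. At the HNT1 start near the coding region the mutant stands at 1513 and 1905, while the wild-type lines drop to 94.5 and 122.

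Of the ribosomal protein genes, RPL42B, RPS27A and RPL39 had called smaller falls. RPL42B had 39111 counts untreated and 8674 with DTT in SNF2 cells, and 28495 and 22049 in snf2W935R (difference 1.80 ± 0.46). RPS27A had 11774 and 2863 counts in SNF2 cells and 10206 and 10295 in the mutant (2.05 ± 0.54). RPL39 had 10019 and 1997 counts, and 8229 and 5388 in the mutant (1.72 ± 0.46). At each of these ribosomal protein genes the untreated strains were within 2-fold and the mutant with DTT stayed above wild type with DTT. A cluster assigned to both RPL29 and MIN10 behaved alike, with 9105 and 1926 counts in SNF2 cells and 8081 and 5531 in snf2W935R (1.69 ± 0.43). SRP40, a nucleolar protein that serves small nucleolar RNA particles, had 2315 and 389 counts in SNF2 cells and 2168 and 1466 in the mutant (2.01 ± 0.51). The adjusted p of these 5 clusters lay between 0.0208 and 0.0271 (Wald test, Benjamini-Hochberg). Several have near-identical gene copies, such as RPL42B and RPS27A, and how reads of such copies were shared is not given in the sources used here.

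Other smaller falls were at genes of varied function. HXT3, a low-affinity glucose transporter, had 2010 counts untreated and 323 with DTT in SNF2 cells, and 1966 and 1123 in snf2W935R (difference 1.83 ± 0.51, Benjamini-Hochberg adjusted p = 0.0391). HEM15, the ferrochelatase of haem synthesis, had 187 and 45.8 counts at its upstream start in SNF2 cells and 153 and 268 in the mutant (2.83 ± 0.73, adjusted p = 0.0225, Benjamini-Hochberg). SWI3 cells had 124 and 89.2 counts at HEM15, a smaller fall than SNF2 cells. MTD1, a tetrahydrofolate dehydrogenase of one-carbon metabolism, had 588 and 95.2 counts at its start 157.5 bp upstream in SNF2 cells and 149 and 252 in snf2W935R (3.39 ± 0.79, adjusted p = 0.0118, Benjamini-Hochberg). At this MTD1 start the mutant was below wild type without DTT and above it with DTT. The nearer MTD1 start, 59.5 bp away, had 445 and 110 counts in SNF2 cells and 95.2 and 82.3 in snf2W935R. The change of the response there was not called. YGL204C had 370 and 153 counts in SNF2 cells and 207 and 440 in the mutant (2.37 ± 0.62). The last 4 smaller falls were intergenic, at differences of 4.53 ± 1.04 for cluster 1017, 3.01 ± 0.79 for cluster 6274, 2.60 ± 0.67 for cluster 1309, opposite the histone gene HTB1, and 2.38 ± 0.52 for cluster 2809, opposite RPL9A.

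SPL2, a regulator of phosphate transport, is the one smaller fall at which the mutant was called lower in both treatments. Its cluster lies inside the coding region, 72.5 bp past the coding start. SNF2 cells had 1857 counts untreated and 289 with DTT, while snf2W935R had 3.14 and 7.41. The mutant arms were so low that the difference of 3.92 ± 0.98 (Wald test, Benjamini-Hochberg adjusted p = 0.0208) compares a fall in wild type with a few counts in the mutant. In the authors' deposited tables the SPL2 effect was -9.21 ± 0.71 without DTT and -5.28 ± 0.68 with DTT.

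GFA1 has more than one start, like HNT1, but its upstream start is the one that DTT lowers. GFA1 makes glucosamine 6-phosphate, the first step towards chitin and glycan precursors. The start 196 bp before its coding region (chrXI:245562-245576, minus strand) had 3807 counts untreated and 948 with DTT in SNF2 cells, and 2836 and 2408 in snf2W935R (difference 1.77 ± 0.46, Wald test, Benjamini-Hochberg adjusted p = 0.0225). The nearer start, 82.5 bp away, had 39.8 and 897 counts in SNF2 cells and 13.3 and 160 in the mutant. The mutant thus kept the upstream start and reached less of the nearer one with DTT, where its effect with DTT was -2.49 ± 0.37 in the authors' deposited table. The change of the response at the nearer start, -0.91 ± 1.22, was not called.

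Among the falls that were larger in snf2W935R, NCE102 had the largest difference. NCE102 encodes a membrane protein of eisosomes, and its start 174 bp upstream (chrXVI:829733-829755, plus strand) had 10963 counts untreated and 2074 with DTT in SNF2 cells. The same NCE102 cluster had 10649 and 236 counts in snf2W935R. Untreated levels were alike, and with DTT the mutant was below SNF2 and below SWI3 cells, which had 976. The difference was -3.10 ± 0.46 (Wald test, Benjamini-Hochberg adjusted p = 5.81e-08). The nearer NCE102 start, 27 bp away, had 267 and 81.7 counts in SNF2 cells and 878 and 161 in the mutant, so the mutant was the higher strain there, and the change of its response was not called. YHB1, the flavohaemoglobin that detoxifies nitric oxide, had 9313 and 991 counts in SNF2 cells and 7445 and 190 in snf2W935R (-2.06 ± 0.49, Benjamini-Hochberg adjusted p = 0.0148). Cluster 2470, opposite RPL23B, had 2375 and 1302 counts in SNF2 cells and 4944 and 820 in the mutant (-1.73 ± 0.49), and SWI3 cells, with 5483 and 1668, were near the mutant without DTT.

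Rises that were larger in the mutant were at TAD2, YDR209C and GSC2. TAD2, a subunit of the tRNA adenosine deaminase and the divergent neighbour of KAR2, had a cluster 466.5 bp inside its coding region (chrX:380466-380603, minus strand). This TAD2 cluster had 47.6 counts untreated and 144 with DTT in SNF2 cells, and 45.3 and 1682 in snf2W935R (difference 3.62 ± 0.89, Benjamini-Hochberg adjusted p = 0.0199). Upstream of the main KAR2 start, on the strand opposite the TAD2 coding region, lies a further KAR2 cluster (chrX:380830-380932, plus strand). This KAR2 cluster had 1.59 counts with DTT in SNF2 cells, 14 in SWI3 cells and 89 in snf2W935R. Its effect with DTT, 5.81 ± 1.14, was called in the authors' deposited table, with the SNF2 arm close to the floor. It has no value without DTT in SNF2 cells or snf2W935R. The YDR209C cluster, 260 bp inside its coding region, had 224 and 291 counts in SNF2 cells and 71.1 and 581 in snf2W935R. SWI3 cells had 73.8 and 385 counts there, nearer to the mutant than to SNF2 cells without DTT. GSC2, a glucan synthase subunit made under stress, had 61.7 and 472 counts at its most upstream start in SNF2 cells, and 0.526 and 412 in the mutant. At this GSC2 start the strains ended alike and differed in the untreated arm, where the mutant mean is under the floor. The difference with that arm at the floor was 5.17. A nearer GSC2 start, 204 bp before the coding start, had 9.53 and 427 counts in SNF2 cells and 0.517 and 89.5 in snf2W935R. There the effect with DTT was called in the authors' deposited table, at -2.255 ± 0.500, and the change of the response was not called.

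At 11 of 11 gained rises the snf2W935R libraries were below the SNF2 libraries without DTT and above them with DTT. Of the 11, 4 were called lower without DTT in the authors' deposited table, beside 1.79% of all clusters. These clusters were chosen on the difference of the same effects, which favours such signs and calls. The counts are thus a description and no support for an effect without DTT. Against untreated SWI3 cells the mutant was not below at UIP3 (455 counts, 419 in SWI3), YBR076C-A (243 and 90.5), DDR2 (261 and 219) and HXT2 (806 and 799). HXT2, a glucose transporter of higher affinity than HXT3, had 1175 counts untreated and 749 with DTT in SNF2 cells, and 806 and 2269 in snf2W935R (difference 2.14 ± 0.49, Benjamini-Hochberg adjusted p = 0.0107). DDR2, a multi-stress response gene, had 847 and 508 counts in SNF2 cells and 261 and 1064 in the mutant (2.77 ± 0.69, adjusted p = 0.0208, Benjamini-Hochberg). In SWI3 cells DDR2 had 219 and 372 counts, so the wild-type strains differed before DTT. VHR1, an activator of biotin genes, had 968 and 346 counts at a start 285.5 bp upstream in SNF2 cells and 217 and 480 in the mutant (2.63 ± 0.69). PEX10, a peroxisomal ubiquitin ligase, had 81.5 and 26.3 counts in SNF2 cells and 13.5 and 93.1 in the mutant (4.42 ± 1.19). The other gained rises were UIP3, DDL1, YBR076C-A (2.90 ± 0.76), cluster 5186, and 3 intergenic clusters on the strand opposite DET1, HMS2 and CPR1. The one opposite CPR1, cluster 1244, had 678 and 602 counts in SNF2 cells and 138 and 995 in the mutant (3.02 ± 0.73). The differences of these 7 ranged from 1.93 at UIP3 to 4.82 at cluster 5186.

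The gained falls rested more often on the untreated arm. At 7 of 9, snf2W935R was above SNF2 cells without DTT. The authors' deposited table calls 5 of these, beside 0.945% of all clusters called higher. These clusters too were chosen on the difference, which favours this sign, so the counts are a description. IDP1, the mitochondrial NADP-dependent isocitrate dehydrogenase, had 1689 counts untreated and 3708 with DTT in SNF2 cells, and 3895 and 1774 in snf2W935R (difference -2.27 ± 0.58, Benjamini-Hochberg adjusted p = 0.0221). SWI3 cells had 3156 and 3457 counts at IDP1, near the mutant without DTT, and the wild-type response was not called. HMX1, a haem oxygenase that releases iron, was an exception to the untreated pattern, with 246 and 274 counts in SNF2 cells and 52.1 and 6.47 in the mutant (-3.17 ± 0.89, adjusted p = 0.0412, Benjamini-Hochberg). YGR176W, opposite the squalene epoxidase gene ERG1, was the other exception, with 359 and 261 counts in SNF2 cells and 249 and 23.3 in snf2W935R (-2.96 ± 0.71). At the remaining gained falls, the untreated SNF2 arm also stood below the untreated SWI3 arm. At SET1, the histone H3 lysine methyltransferase, it had 0.199 counts against 35.3 in SWI3 cells and 37.1 in the mutant. At cluster 5228, opposite SSA2, it had 0.199 counts against 31.5 and 34.5, and at cluster 5511, opposite TAL1, 33.7 against 324 and 463. Cluster 4392, opposite SOD1, had 5.53 counts untreated and 61.4 with DTT in SNF2 cells, 37.7 and 54.1 in SWI3 cells, and 84.1 and 21.9 in the mutant (-5.41 ± 1.31). Cluster 7355, opposite RPS15, had 24.2 and 46.9 counts in SNF2 cells, 142 and 46.4 in SWI3 cells, and 107 and 8.46 in the mutant (-4.62 ± 1.30). Cluster 1789, opposite SED1, had 126 and 335 counts in SNF2 cells, 299 and 381 in SWI3 cells, and 446 and 167 in the mutant (-2.83 ± 0.72). Without DTT, SWI3 cells stood between SNF2 cells and the mutant at clusters 4392 and 1789, and above both at cluster 7355. The share of these gained falls that comes from the SNF2 libraries was not tested.

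**Figure D3:**
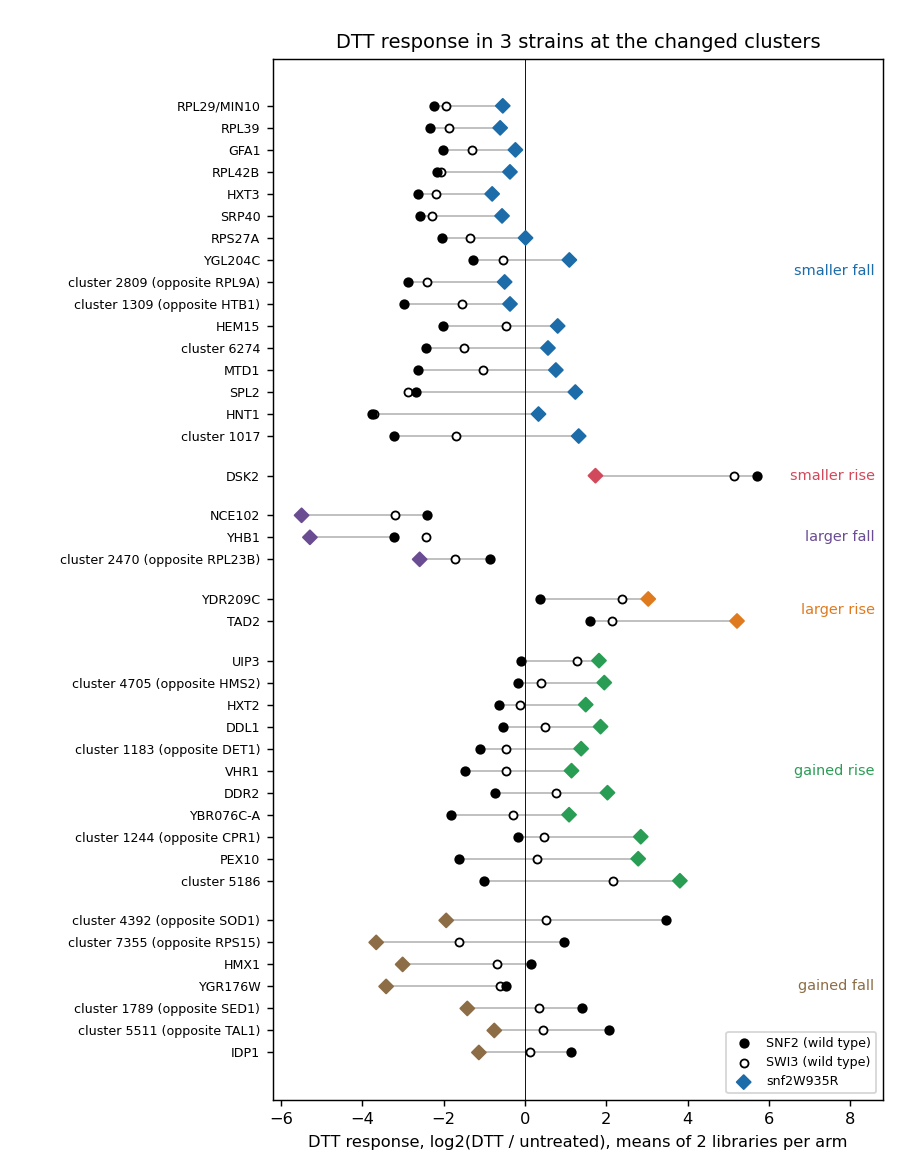
DTT response (log2 of DTT over untreated, means of 2 libraries per arm) at 40 changed clusters with each arm above the floor, in SNF2 wild type (filled circles), SWI3 wild type (open circles) and snf2W935R (diamonds), grouped by class, with grey lines joining SNF2 and snf2W935R. SWI3 lies close to SNF2 at HNT1, SPL2, RPL42B and DSK2, and nearer to the mutant at YDR209C and UIP3.

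With the SWI3 libraries in place of the SNF2 libraries, a comparison of arm means without a test, 44 of the 45 differences kept their sign and 40 were 2-fold or more. The mutant libraries are the same in both comparisons, and the clusters were chosen on them, so these counts are a description of the wild-type sets and no independent support. All 16 smaller falls stayed 2-fold or more, with HEM15 at 1.28, MTD1 at 1.79 and RPS27A at 1.37. Those under 2-fold included UIP3 (0.55), YDR209C (0.65) and cluster 2470 (-0.88), and SET1 turned to 0.45.

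By position, intergenic clusters were 33.3% of the changed ones (15 of 45) and 13.6% of all tested, given as a description without a test. Of these 15, 12 lay on the strand opposite a coding region, as did 450 of the 705 tested intergenic clusters. With YGR176W there were 13 such clusters, among them those opposite the ribosomal protein genes RPL9A, RPL23B and RPS15. The gene on the other strand had a measured cluster in 11 cases, none of which was called, with differences from -1.12 to 1.99, 10 of them of the same sign as the opposite cluster. The pair with the largest differences on both strands was at RPL9A. Cluster 2809 opposite it (chrVII:227977-228240, plus strand) had 1739 counts untreated and 236 with DTT in SNF2 cells and 1122 and 793 in snf2W935R (2.38 ± 0.52, Benjamini-Hochberg adjusted p = 0.00544). RPL9A itself had 1065 and 85.6 counts in SNF2 cells and 1013 and 323 in the mutant (1.99 ± 0.57, adjusted p = 0.0521, Benjamini-Hochberg). Among the changed clusters upstream of a coding start, 7 of 21 lay 150 bp or more away, against 11.5% of all tested upstream clusters, a limit that was chosen after the values were seen. These include NCE102, GFA1, MTD1, VHR1, DDR2, GSC2 and SET1.

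Genes with a start that wild type raised with DTT and one further downstream that it lowered, as at HNT1, numbered 7. In POM33 the lowered start is 482 bp inside the coding region, and in RPS23A both starts are inside it, 401 and 508 bp past the coding start, so these 2 genes lack the arrangement of HNT1. Over the 8 pairs of starts, the downstream start was called in snf2W935R only at HNT1. With DTT in SNF2 cells the raised start had 38.7 counts at STM1, 42.6 at COX9, 89.6 at YCR051W and 245 at MEP2. It had 296 at RPS23A, 1194 at POM33 and 1520 at HNT1. In snf2W935R with DTT the values, in the same order, were 59.3, 19.3, 7.11, 324, 114, 990 and 984. With DTT in SNF2 cells the raised start was below the lowered one at STM1, COX9 and YCR051W, and above it at the other genes. COX9, a subunit of cytochrome oxidase, had 546 and 228 counts at its downstream start in SNF2 cells and 831 and 473 in snf2W935R (difference 0.45 ± 0.54). STM1, a ribosome-bound preservation factor, had 19274 and 4880 counts, and 22474 and 8930 in the mutant (0.65 ± 0.43). A further lowered start of STM1, inside its coding region, had a difference of -0.75 ± 0.85. MEP2, the high-affinity ammonium permease, had 223 and 145 counts, and 555 and 186 in the mutant (-0.95 ± 0.70). The downstream starts of POM33, RPS23A and YCR051W had differences of 1.34 ± 0.90, 1.10 ± 0.98 and -0.13 ± 0.59. The median difference of the 8 downstream starts was 0.55, with 5 above 0, and that of the upstream starts was 0.32. Apart from HNT1, the SEs of the downstream starts ranged from 0.43 to 0.98, beside wild-type log2 fold changes from -2.81 to -0.88 in the authors' deposited table.

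Gene lists were described at the cluster with the highest level of each gene, beside a median difference of 0.04 over all 5181 clusters. Ribosomal proteins had a median of 0.43, with 95 of 130 measured genes above 0, and 3 called higher (RPL42B, RPS27A and RPL39), which is 2.31% beside 0.579% of all clusters. Of the 130 genes, 125 are called lower in wild type, and over all 895 clusters called lower there the median was 0.49 with 16 called higher, values close to those of the list, in a table that holds the SNF2 libraries too. The median DTT response of this list was -1.63 in the authors' deposited wild-type table. With the difference of each gene added to that response the median was -1.19, which is not a response read from the snf2W935R libraries alone. Ribosome biogenesis had a median of 0.57 with 27 of 35 above 0 and none called, and NOP15, a pre-60S assembly factor, was its leading member at 2.14 ± 0.67 (Benjamini-Hochberg adjusted p = 0.0828). Histone genes had a median of 1.11 with 9 of 10 above 0 and none called. HTB2, a histone H2B gene, had 18413 counts untreated and 2532 with DTT in SNF2 cells and 12542 and 5408 in snf2W935R (1.65 ± 0.48, adjusted p = 0.0529, Benjamini-Hochberg). Daughter cell and G1 genes had a median of 1.17 with 12 of 15 above 0 and none called. Its leading member, SCW11, was against this sign at -7.27 ± 3.06, with the mutant arm with DTT under the floor. The G1 cyclin CLN3 had 3689 and 1390 counts in SNF2 cells and 2357 and 2156 in the mutant (1.28 ± 0.62).

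Nutrient lists differed in sign. Hexose transport, with 5 of 14 listed genes measured, had 5 above 0, a median of 1.83 and 2 called higher, HXT2 and HXT3, where 0.579% of all clusters are called higher. The phosphate, iron and general stress lists below had 1 called gene each, where 0.869% of all clusters are called. HXT4 had 434 counts untreated and 1.22 with DTT in SNF2 cells and 193 and 21.5 in snf2W935R, and its difference was not called (Benjamini-Hochberg adjusted p = 0.181), with the SNF2 arm with DTT under the floor. Of the phosphate genes 12 of 14 were above 0 with a median of 0.48, SPL2 called higher, and the transporter gene PHO84 was against this sign with 1688 and 962 counts in SNF2 cells and 374 and 74.6 in the mutant (-1.51 ± 0.53, not called). Phosphate genes began low in the mutant, with a median effect without DTT of -2.08 in the authors' deposited table. Iron uptake had a median of -0.36 with 5 of 17 above 0 and HMX1 called lower. FIT2, a cell wall mannoprotein that holds siderophores, had 730 and 4235 counts in SNF2 cells and 75.6 and 95.0 in snf2W935R (-2.21 ± 0.65, Benjamini-Hochberg adjusted p = 0.0536).

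In the lists of the ER and the secretory pathway GFA1 was the one called gene. With 0.869% of all clusters called, a count of 0 in lists of this size is no result about them. None of 18 ER folding genes, 16 genes of ER-associated degradation and 19 vesicle coat genes was called, at median differences of 0.17, 0.39 and 0.11, with 10, 11 and 13 members above 0. Unadjusted, the leading members pointed both ways. ERO1, the thiol oxidase of the ER, had 1801 and 2266 counts in SNF2 cells and 749 and 2089 in snf2W935R (1.15 ± 0.45), while KAR2 had the smaller response given above. Of the 28 measured translocation and glycosylation genes GFA1 was called higher, at its upstream start, and the median was 0.24. In the general stress list DDR2 was called higher, while 12 of 18 members were below 0 and the median was -0.27. TFS1, an inhibitor of carboxypeptidase Y, had 304 and 2703 counts in SNF2 cells and 178 and 556 in the mutant (-1.51 ± 0.59, not called). The other 12 lists had no called member, and their medians lay between -0.47 for unfolded protein response signalling and 0.38 for MATa-specific and pheromone genes. Among them were ergosterol synthesis at -0.44, with 8 of 25 above 0, heat shock chaperones at -0.45, with 6 of 16 above 0, and the respiratory chain at -0.19.

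**Figure D4:**
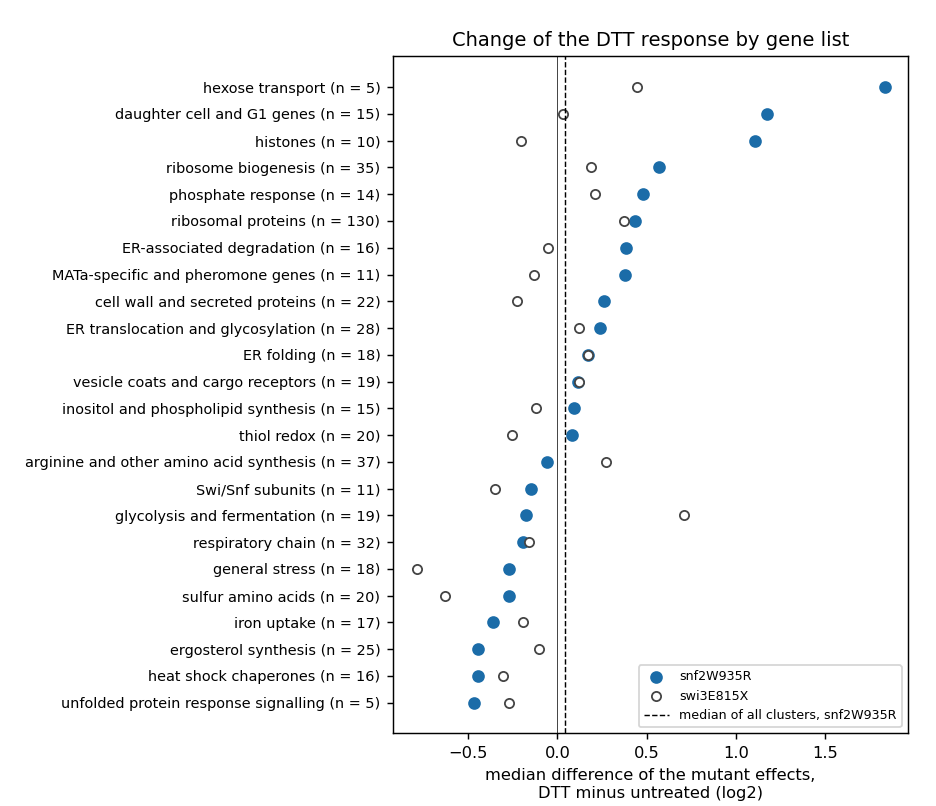
Median change of the DTT response (difference of the mutant effects with and without DTT, log2) over the measured genes of 24 lists, for snf2W935R (filled) and swi3E815X (open), with the median of all clusters in snf2W935R as a dashed line. In snf2W935R hexose transport (1.83), daughter cell and G1 genes (1.17) and histones (1.11) lie farthest right.

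The change of the response was also read beside the response of SWI3 cells, which share no library with it. Among clusters with a mean count of at least 50 whose level in SWI3 cells was 2-fold or more lower with DTT, the median difference in snf2W935R was 0.34, with 63.2% of 565 above 0. Clusters 2-fold or more higher with DTT in SWI3 cells had a median of -0.04 with 48.1% of 428 above 0, and those within 2-fold had 0.05 with 52.5% of 2564 above 0. Over all counts, the share called was 2.05% of the clusters that were lower in SWI3 cells and 0.701% of those that were higher. Genes are not independent replicates, and these values are given without a test.

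In swi3E815X, which truncates the Swi3 subunit and was compared with SWI3 libraries, the same difference was called at 2 clusters (0.0386%). At the 45 clusters changed in snf2W935R, swi3E815X had the same sign at 29, and HNT1 was the one called there, at 1.89 ± 0.42 (Wald test, Benjamini-Hochberg adjusted p = 0.0211). Its median was 0.29 where snf2W935R was higher and -0.23 where it was lower. The histone median in swi3E815X was -0.20 and the daughter cell median 0.03, while the ribosomal protein median, 0.37, was close to 0.43 in snf2W935R. The share of equal signs and the swi3E815X median over all clusters are not given here, so these values are a description. A test of the difference between the mutants passed at 0 of 5172 clusters with Benjamini-Hochberg adjustment, and 334 had an unadjusted p under 0.05, so no cluster is shown to be particular to snf2W935R. In snf2Q928K, which was compared with the same SNF2 libraries, 73 clusters (1.41%) were called. Side by side, the differences in snf2Q928K and snf2W935R were 4.55 and 4.09 at start-proximal HNT1, -4.32 and -3.97 at DSK2, -0.63 and -2.06 at YHB1, and 0.36 and 2.77 at DDR2. These mutants share their control libraries, and the test of their difference, whose SE is then too large, passed at 0 of 5178 clusters, with 41 at an unadjusted p under 0.05.

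Just inside the threshold lay HMX1 (Benjamini-Hochberg adjusted p = 0.0412) and the intergenic clusters 7355 (0.0446) and 2470 (0.0459). Just outside it were GPD1 (2.42 ± 0.69, 0.0509), RPL9A and YLR076C (-2.19 ± 0.63, 0.0521). The smallest called difference was 1.69 on the log2 scale, and the median SE of a difference was 0.83, or 0.66 at clusters with a mean count of at least 50. Unadjusted, 536 clusters had p under 0.05. The SNF2 gene itself had effects of -0.04 ± 0.83 without and -0.24 ± 0.77 with DTT in the authors' deposited tables, and start counts do not show whether the substitution is present. None of the 45 clusters had CAGCGTG in its 300 upstream bases, beside 1.89% of all tested clusters, and a count of 0 among 45 is no result about them. The CAGCGTG shown above for HNT1 lies beyond the 300 bases searched from its start-proximal cluster. TGACTC, the site of the amino acid regulator Gcn4, was upstream of 5 of the 15 lower clusters and 2 of the 30 higher ones, against 9.26% of all tested clusters, and CCCCT, the stress element, was upstream of 17.8% of the 45 and 21.9% of all. These matches are descriptions of letters in a window.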

How the data were processed

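The authors deposited 7 comparison tables, and the 2 for snf2W935R (with and without DTT) give the differences. The submitters' processing notes name cutadapt, HISAT2, DESeq2 and sacCer3/R64, without versions. Each line, per the file headers, gives a cluster with its mean normalized count, a coverage signal that the authors scaled, a log2 fold change with its SE, a Wald statistic (a score computed by the authors), and p-value columns that the authors deposited. Depth per library is unknown, since the tables hold no column of a single library. The mean normalized counts summed to 6452422 (wild type), 6784233 (snf2W935R with DTT) and 6482370 (untreated).

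Tables were joined by cluster number. The difference of the log2 fold changes was divided by the square root of the sum of its squared SEs (two-sided Wald test, normal reference), with Benjamini-Hochberg adjustment over 5181 clusters, and called at an adjusted p under 0.05. The tables share no library, but the flasks of a replicate shared a culture, and any covariance from this was not available. Arm means came from the deposited means and fold changes; SNF2 arms agreed between both snf2 tables (robust SD 0.0012 log2 with DTT, 0.00089 without), and averaging the SNF2 and SWI3 sets gave the wild-type table, that is 4 libraries per arm. The floor was 3 normalized counts over the 2 libraries of an arm. Scripts were tested on simulated data. Described are all HNT1 clusters, the main clusters of KAR2 and HAC1, up to 6 called clusters per class by size of difference (arm means of at least 1.5, mean of at least 20), called list members and up to 3 leading members per list. The other called clusters described (such as IDP1, SET1, GSC2, SRP40 and MEP3), further starts of the same genes, RPL9A and the clusters near the threshold were added after their values were seen. One called cluster is counted but not reported here by itself. Members and the 24 gene lists were chosen with earlier results of these data known. Alternatives covered count filters, centring, the SE, the reference distribution and the wild-type set. Software was python 3.11.15, pandas 2.3.3, numpy 2.4.6, scipy 1.17.1 and matplotlib 3.10.9. P-values rest on the SEs that the authors deposited for comparisons with 2 replicates per arm. The spread between replicates at a cluster was not measured here.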

Additional observations from a re-analysis of the deposited data

Results flagged for a closer look

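The DTT response differed between snf2W935R and SNF2 wild type, by the test of the difference itself, at 30 clusters that were higher and 15 that were lower in the mutant with DTT relative to untreated. These counts are the main result described above. No other value met a criterion for a closer look, since no group had 4 or more values per library.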

How the results depend on the processing

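The count of 45 changed clusters (18 smaller, 7 larger, 20 gained) depends most on how the error is taken. With the larger of the 2 SEs used for both tables, 12 clusters were called, 5 smaller, 1 larger and 6 gained, all 12 among the 45. With a t distribution of 4 degrees of freedom in place of the normal, 0 were called in each class by the same test, with 148 at an unadjusted p under 0.05. With filters at a mean of 10 and 50 counts, 54 and 51 were called, sharing 45 and 36 with the main result. After the median difference was subtracted, 51 were called, 29 higher and 22 lower beside 30 and 15, with 44 shared. Classes taken from SNF2 libraries alone at 2-fold gave 29 smaller, 4 larger and 12 gained responses, and SWI3 libraries alone gave 16, 10 and 19. The SNF2 libraries also enter the difference, which favours the smaller class in the SNF2 reading. Requiring 2-fold of the wild-type call gave 17, 7 and 21. With SWI3 in place of SNF2 libraries, added after the data were seen, SET1 reversed to 0.45 from -8.20. With the cluster nearest upstream standing for each gene, the ribosomal protein median was 0.45 and the histone median 1.14, and SPL2 and GFA1 were no longer counted as called list members. No paired analysis was possible because the tables hold no values per library, and leaving out single replicates was not run for that reason. The precision is limited by 2 replicates per arm.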
